A study of Mus musculus with 4 samples.

Results

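The subject is a set of 10 mouse genes for transcription factors of the T helper lineages, Gata3, Rora, Maf, Ahr, Stat3, Stat4, Prdm1, Runx1, Runx3 and Zbtb7b, followed over 4 populations of CD4+ CD8- thymocytes. The 10 genes were chosen by name out of 18193 genes on Affymetrix mouse 430 2.0 arrays, and 34 probe sets measured them. Of these probe sets, 20 were above the background floor on at least 1 array. Each gene is represented by its brightest probe set on average, called its main probe set. By main probe set, 6 members were above the floor on every array, 9 on at least 1 and Zbtb7b on none. Of all 18193 genes, 5795 were above it on every array and 7208 on at least 1.

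Foxp3-fusion cells are GFP+ thymocytes of Foxp3(gfp/gfp) females, whose 2 copies of the X-linked Foxp3 gene encode a GFP-Foxp3 fusion protein. Foxp3-null cells are GFP+ thymocytes of Foxp3(gfpko/wt) females, which carry 1 GFP-tagged knockout allele beside a wild-type one, so that GFP marks cells using the knockout copy. GFP- CD25+ and GFP- CD25- cells are thymocytes of Foxp3(gfp/gfp) females that lack GFP and are split by surface CD25. All mice were 6 to 8 weeks old. Foxp3-null mice had been backcrossed to C57BL/6 from 129/Sv for 2 generations and the others for 4 to 6, so genotype, strain background and array cannot be told apart in any comparison with Foxp3-null cells. The group of the Foxp3-null sample rests on its title, since its description repeats the Foxp3(gfp/gfp) text. Each population had 1 array. There is thus no spread between replicates, and no difference below carries an error or a p-value. With so few arrays, precision cannot be judged. In sorted bulk RNA, fewer cells of a type and less RNA per cell cannot be told apart.

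Naive CD4 T cells take on helper fates under cytokines that act through STAT proteins, and each fate is tied to a few transcription factors. STAT4 relays interleukin-12 in T helper 1 cells, GATA3 directs T helper 2 cells, STAT3, RORalpha and the aryl hydrocarbon receptor take part in T helper 17 cells, and c-Maf and Blimp-1 (encoded by Prdm1) act in interleukin-10 production and in effector and regulatory T cells. In the thymus the same kind of factors decide lineage: GATA3 and ThPOK (encoded by Zbtb7b) are needed for CD4 cells, whereas RUNX proteins silence Cd4 and ThPOK in CD8 cells. Several of these factors also work in regulatory T cells, where RUNX1 with its partner CBFbeta binds Foxp3.

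Values are log2 signals after quantile normalization over the 4 arrays, and the floor of 5.03 log2 marks what probe sets of tissue genes silent in T cells reach. A difference with 1 array under the floor is a lower bound, and none is given when both are under it. Foxp3 itself, through which GFP+ cells were sorted, read 8.82 log2 in Foxp3-fusion cells, 7.27 in Foxp3-null cells, 2.88 in GFP- CD25+ cells and 2.76 in GFP- CD25- cells. All 9 measured T cell identity genes, among them Cd3e and Cd4, were above the floor on all 4 arrays, and Cd8a and Cd8b1 were under it on all 4 of these CD4+ CD8- cells. A measure of RNA quality differed between arrays. Actin probe sets placed at the transcript's 3' end exceeded those at its 5' end by 5.02 log2 on the Foxp3-fusion array, by 7.10 on the Foxp3-null array, 9.29 on the GFP- CD25+ array and 8.37 on the GFP- CD25- array. For Gapdh the same gap was 4.60, 4.93, 6.51 and 6.56 log2 in that order, so the GFP+ arrays were closer to each other than by actin.

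**Figure D1:**
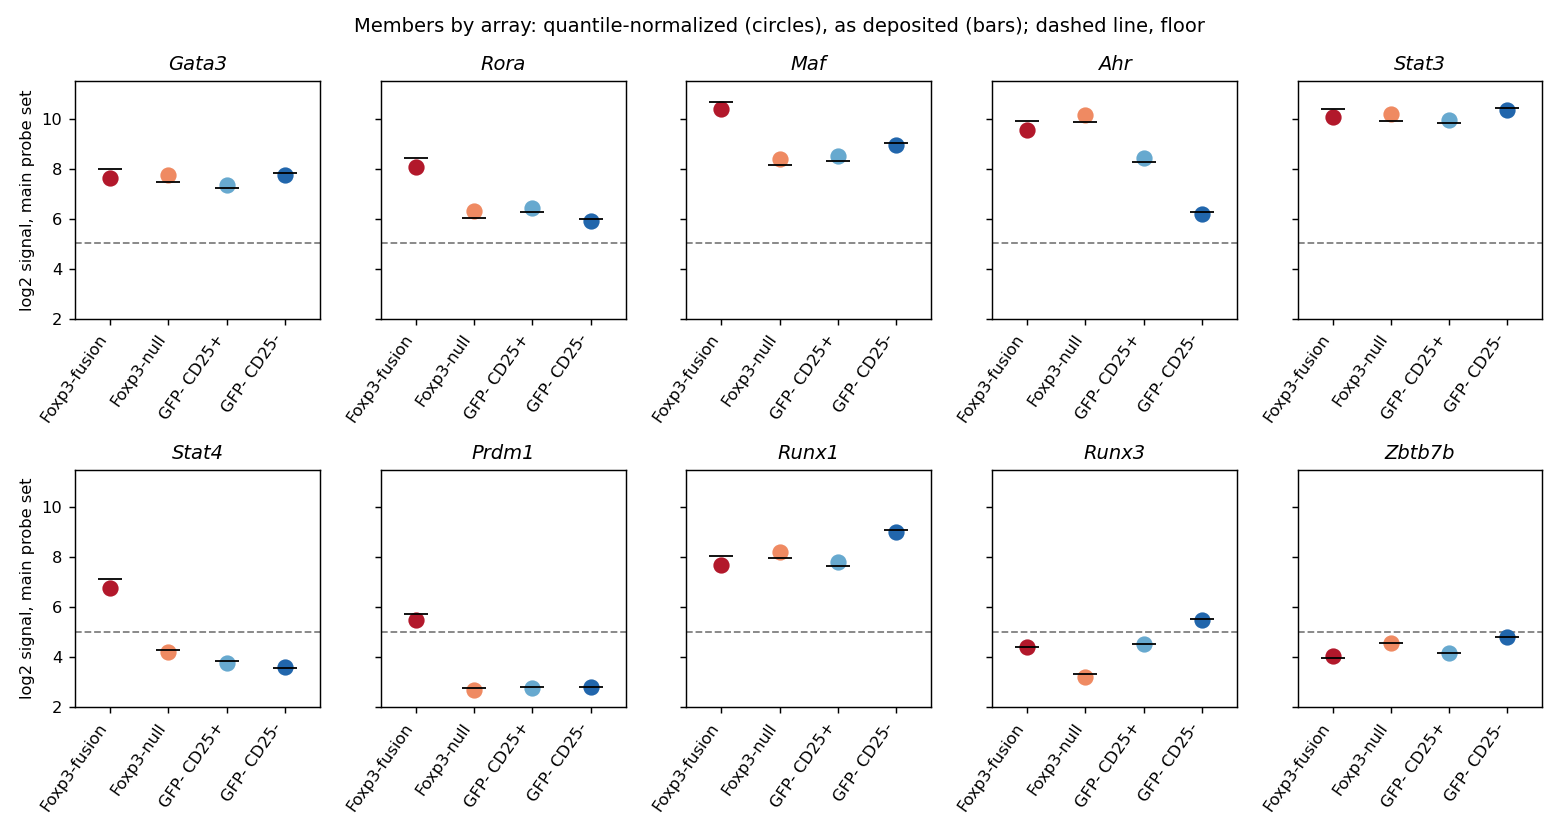
Log2 signal of the main probe set of each of the 10 members (vertical axis) on the 4 arrays (horizontal axis), as quantile-normalized values (circles) and as deposited (bars), with the floor of 5.03 log2 dashed. Ahr is lowest in GFP- CD25- cells, Rora, Maf, Stat4 and Prdm1 are highest in Foxp3-fusion cells, Gata3 and Stat3 are level, and Zbtb7b stays under the floor.

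Foxp3-fusion cells were set against GFP- CD25- cells to describe these factors in thymic regulatory T cells. Signal in Foxp3-fusion cells exceeded that in GFP- CD25- cells by 2-fold or more for Ahr, Rora, Maf and Stat4, and fell short of it by 2-fold or more for Runx1. That is 4 of the 9 members with a value, where 10.5% of 6722 genes with a value were at least 2-fold higher, and 1 of 9, where 5.86% of all genes were at least 2-fold lower. The median log2 difference was 0.48 over the 9 members and -0.04 over all genes. The members' median is the lower bound of Prdm1 and so is set by the floor, and with no floor it was 1.43. The members were picked with results of these arrays known, so the counts describe them and are not independent support. With the values as deposited, the same counts were 4 and 1, against 15.7% and 3.8% of all genes.

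The other populations were likewise set against GFP- CD25- cells. Of 7 members with a value in Foxp3-null cells 1, Ahr, was at least 2-fold higher (10.5% of all genes) and 0 were at least 2-fold lower (7.64%). As deposited the counts were 1 (5.08%) and 1 (12.6%). In GFP- CD25+ cells 1 of 7, again Ahr, was at least 2-fold higher (4.3%) and 1, Runx1, at least 2-fold lower (4.5%). As deposited they were again 1 (2.75%) and 1 (7.72%). These 3 comparisons share the GFP- CD25- array, so a low or high value there enters all of them.

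Foxp3-fusion cells were also set against Foxp3-null and GFP- CD25+ cells. Over Foxp3-null cells, Rora, Maf and Stat4 were at least 2-fold higher, or 3 of 8 members with a value (9.06% of all genes), and 0 were at least 2-fold lower (8.42%). Over GFP- CD25+ cells, Rora, Maf, Ahr and Stat4 were at least 2-fold higher, or 4 of 8 (11.7%), and 0 were at least 2-fold lower (8.48%). As deposited, 3 of 8 members were at least 2-fold higher over Foxp3-null cells, where 21.2% of all genes were, and 4 of 8 over GFP- CD25+ cells, where 22.8% were. The balance of all genes also depended on the scale. In Foxp3-fusion over Foxp3-null cells 51.8% of all genes 2-fold apart were higher after quantile normalization and 89.2% were higher as deposited, and over GFP- CD25+ cells the shares were 57.9% and 88.3%. Over GFP- CD25- cells the corresponding pairs were 64.3% and 80.6% for Foxp3-fusion cells, 58.0% and 28.7% for Foxp3-null cells, and 48.9% and 26.2% for GFP- CD25+ cells. As deposited, the median over all genes was 0.34 log2 in Foxp3-fusion over Foxp3-null cells and 0.30 over GFP- CD25+ cells, against -0.16 and -0.09 after normalization. Over GFP- CD25- cells the deposited medians were 0.18 in Foxp3-fusion, -0.03 in Foxp3-null and -0.05 in GFP- CD25+ cells, against -0.04, 0.22 and 0.12 after normalization.

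**Figure D2:**
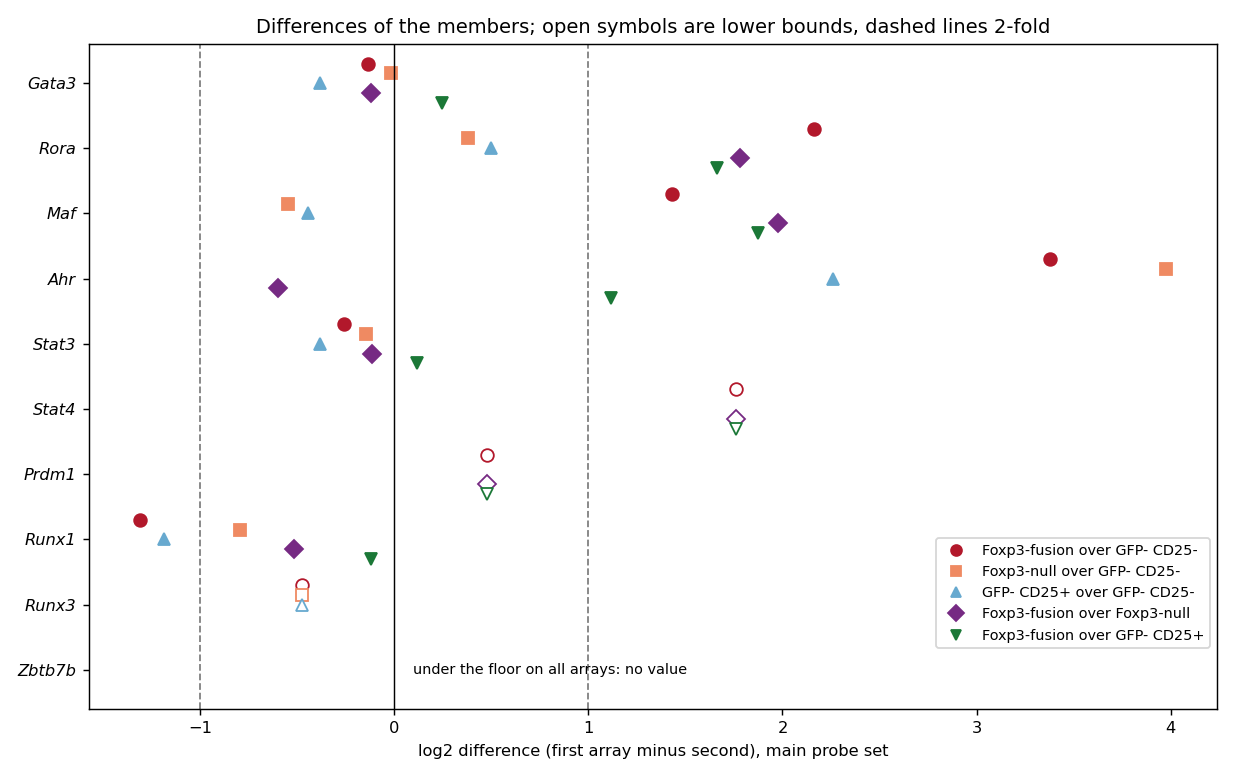
Log2 difference of each member's main probe set in the 5 comparisons (horizontal axis, first-named array minus second), with dashed lines at 2-fold and open symbols for lower bounds. Ahr reaches 3.98 in Foxp3-null over GFP- CD25- cells, Rora, Maf and Stat4 lie past 2-fold in each comparison of Foxp3-fusion cells, and Runx1 lies past -1 in Foxp3-fusion and GFP- CD25+ over GFP- CD25- cells.

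Ahr encodes the aryl hydrocarbon receptor, a factor that is activated by small-molecule ligands and pairs with ARNT on DNA. It read 9.56 log2 in Foxp3-fusion cells, 10.16 in Foxp3-null cells, 8.44 in GFP- CD25+ cells and 6.18 in GFP- CD25- cells. The level was thus highest in the GFP+ populations, intermediate in GFP- CD25+ cells and lowest in GFP- CD25- cells. Over GFP- CD25- cells Ahr was higher by 10.4-fold in Foxp3-fusion cells, by 15.7-fold in Foxp3-null cells and by 4.79-fold in GFP- CD25+ cells. A larger upward difference was seen for 26 genes in Foxp3-fusion cells, 6 in Foxp3-null cells and 24 in GFP- CD25+ cells.

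Between the GFP+ populations Ahr differed by -0.60 log2, Foxp3-fusion minus Foxp3-null, after normalization and by 0.01 as deposited, so this small difference has no settled direction. Foxp3-fusion cells exceeded GFP- CD25+ cells by 2.17-fold for Ahr, with 656 genes further apart in that direction. Its other probe set, 1450695_at, was under the floor on all 4 arrays and gives no second reading.

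Of 14 listed partners and targets of the receptor, 11 were on the array with a name and 4 had a value in Foxp3-fusion over GFP- CD25- cells. Of these 4, 1 was at least 2-fold higher and 0 lower, where 10.5% and 5.86% of all genes were. The 1 was Ncoa7, a nuclear receptor coactivator gene, at 9.85 log2 in Foxp3-fusion cells, 11.45 in Foxp3-null cells, 9.07 in GFP- CD25+ cells and 8.69 in GFP- CD25- cells. Arnt, the partner, read 7.59, 6.81, 8.02 and 7.58 log2 over the same 4 arrays, with no 2-fold gap in any comparison. The receptor's textbook targets Cyp1a1 and Cyp1b1 and its repressor Ahrr were under the floor on all 4 arrays. At this floor these 3 genes were not detectable in any population, those with high Ahr signal included. Tiparp, also on the list, was detected on 3 arrays. It read 5.49 log2 in Foxp3-fusion cells, 5.33 in GFP- CD25+ cells and 5.54 in GFP- CD25- cells, and 3.91, under the floor, in Foxp3-null cells.

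Rora encodes the nuclear receptor RORalpha. Its main probe set read 8.08 log2 in Foxp3-fusion cells, 6.30 in Foxp3-null cells, 6.42 in GFP- CD25+ cells and 5.92 in GFP- CD25- cells. Foxp3-fusion cells stood apart from the other 3 populations, which lay within 0.50 log2 of each other. Rora in Foxp3-fusion cells exceeded its level in Foxp3-null cells by 3.44-fold, in GFP- CD25+ cells by 3.16-fold and in GFP- CD25- cells by 4.47-fold. As deposited the gap to Foxp3-null cells was 5.27-fold. Of 9 Rora probe sets, 6 were above the floor on at least 1 array.

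The Rora probe sets did not all share that order of arrays. On 1436325_at the values were 7.58 log2 in Foxp3-fusion cells, 4.19 in Foxp3-null cells, 6.50 in GFP- CD25+ cells and 5.13 in GFP- CD25- cells, which put GFP- CD25+ cells second and 2.57-fold above GFP- CD25- cells. On 1436326_at they were 5.10, 5.36, 6.67 and 4.41 over the same arrays, so GFP- CD25+ cells were highest and Foxp3-fusion cells 2.97-fold lower than they. On 1424034_at and 1420583_a_at Foxp3-fusion cells alone were above the floor, at 5.55 and 5.17 log2. The remaining probe set above the floor, 1458129_at, read 5.50 log2 in Foxp3-fusion cells and 5.33 in GFP- CD25+ cells, only 1.12-fold apart. Foxp3-null and GFP- CD25- cells were under the floor on it.

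Maf encodes c-Maf, a leucine zipper factor that drives interleukin-4 and interleukin-10 genes. Its main probe set read 10.38 log2 in Foxp3-fusion cells, 8.40 in Foxp3-null cells, 8.50 in GFP- CD25+ cells and 8.95 in GFP- CD25- cells. Foxp3-fusion cells were again the high population, and Foxp3-null and GFP- CD25+ cells lay close together below GFP- CD25- cells. Maf in Foxp3-fusion cells exceeded its level in Foxp3-null cells by 3.94-fold, in GFP- CD25+ cells by 3.66-fold and in GFP- CD25- cells by 2.69-fold. All 4 Maf probe sets with signal above the floor were highest in Foxp3-fusion cells. For 1435828_at and 1444073_at, which passed the floor there alone, that order was fixed by the floor.

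The gap to Foxp3-null cells was wider on 1447849_s_at, where Maf read 8.70 log2 in Foxp3-fusion cells, 5.40 in Foxp3-null cells, 7.61 in GFP- CD25+ cells and 6.92 in GFP- CD25- cells. There Foxp3-fusion cells were 9.84-fold above Foxp3-null cells, and Foxp3-null cells were 2.86-fold below GFP- CD25- cells. On 1435828_at and 1444073_at only Foxp3-fusion cells passed the floor, at 6.18 and 5.97 log2.

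Counted by probe set, Foxp3-fusion over GFP- CD25- cells had 8 of 20 member probe sets with a value past 2-fold upwards, in 5 genes, where 10.1% of all probe sets were, and 1 downwards (8.86%). In Foxp3-null over GFP- CD25- cells 1 of 13 was past 2-fold upwards (9.23%) and 1, of Maf, downwards (12.6%). In GFP- CD25+ over GFP- CD25- cells the counts were 3 of 14 upwards (4.02%) and 1 downwards (6.42%). In Foxp3-fusion over Foxp3-null cells they were 8 of 19 upwards (11.0%) and 0 downwards (7.47%), and over GFP- CD25+ cells 8 of 19 upwards (11.9%) and 1, of Rora, downwards (9.1%). Probe sets of 1 gene share its transcripts and are not independent of each other.

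**Figure D3:**
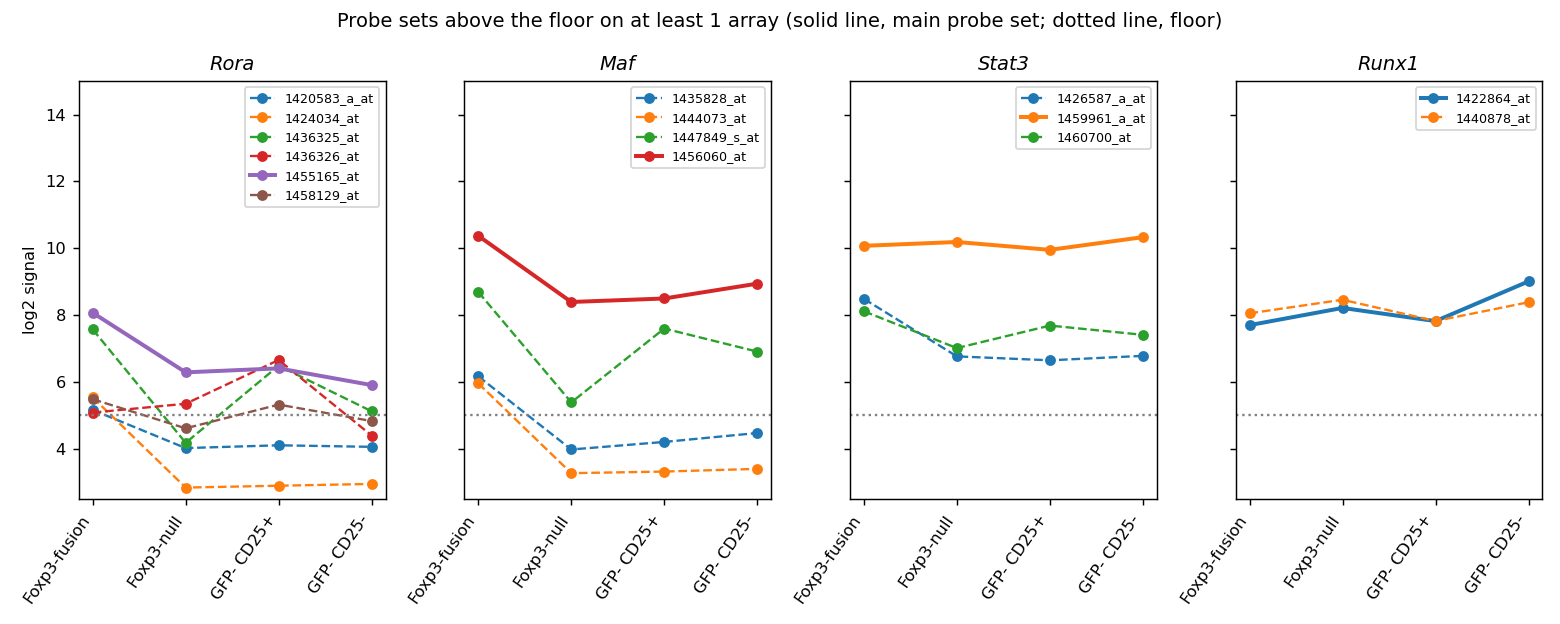
Log2 signal (vertical axis) of every Rora, Maf, Stat3 and Runx1 probe set above the floor on at least 1 array, across the 4 arrays, with a solid line for the main probe set and a dotted line at the floor of 5.03 log2. The 4 Maf probe sets share their maximum in Foxp3-fusion cells, but 1435828_at and 1444073_at pass the floor there alone. The Rora, Stat3 and Runx1 probe sets do not share one order.

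Stat4 encodes the signal transducer used by the interleukin-12 receptor. It had 1 probe set, at 6.79 log2 in Foxp3-fusion cells, 4.22 in Foxp3-null cells, 3.80 in GFP- CD25+ cells and 3.62 in GFP- CD25- cells. Signal passed the floor in Foxp3-fusion cells alone, so Stat4 was at least 3.38-fold higher there than in each of the other populations. As deposited the bound was 4.48-fold. Of the interleukin-12 receptor chains, Il12rb1 and Il12rb2 were under the floor on all 4 arrays.

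Of 4 CD8 T cell markers, 1 was above the floor on each array, and it too was highest in Foxp3-fusion cells. Itgae, an integrin gene of CD8 and of other mucosal and regulatory T cells, read 11.94 log2 in Foxp3-fusion cells, 8.18 in Foxp3-null cells, 9.35 in GFP- CD25+ cells and 6.77 in GFP- CD25- cells. Its level in Foxp3-fusion cells exceeded that of Foxp3-null cells by 13.5-fold and that of GFP- CD25- cells by 35.9-fold. The linear signals of the list summed to 3963 in Foxp3-fusion cells, 337 in Foxp3-null cells, 709 in GFP- CD25+ cells and 159 in GFP- CD25- cells. In these sums Itgae was the only gene above the floor. Cd8a and Cd8b1, which define CD8 T cells, and the remaining marker Crtam were under it on all 4 arrays, at most at 4.78 log2. With the lower floor of 4.50 log2 tried as an alternative, Cd8a passed it on every array but the Foxp3-fusion one.

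Prdm1 encodes Blimp-1, a transcriptional repressor that acts in effector T cells and plasma cells. Its 1 probe set read 5.51 log2 in Foxp3-fusion cells, 2.71 in Foxp3-null cells, 2.77 in GFP- CD25+ cells and 2.82 in GFP- CD25- cells. It too passed the floor in Foxp3-fusion cells alone, by a small margin, which gives a bound of at least 1.39-fold.

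The promoters of Stat4, Rora and Prdm1 are shown because signal of these genes was highest in the same population by main probe set. The sequences are RefSeq's for GRCm38.p6 and run 5' to 3' over the 250 bases before an annotated transcript start. Both strands were searched for 7 motifs, and matches are in capitals. The motif of ROR receptors was spelled AGGTCA, that of the aryl hydrocarbon receptor GCGTG and that of GATA factors GATA. The motif of STAT factors was the palindrome TTCNNNGAA, that of RUNX factors ACCACA, that of Blimp-1 the core GAAAGT and that of Maf factors the letters TGCTGA.
Stat4, first start, chr1:51986898-51987147, plus strand: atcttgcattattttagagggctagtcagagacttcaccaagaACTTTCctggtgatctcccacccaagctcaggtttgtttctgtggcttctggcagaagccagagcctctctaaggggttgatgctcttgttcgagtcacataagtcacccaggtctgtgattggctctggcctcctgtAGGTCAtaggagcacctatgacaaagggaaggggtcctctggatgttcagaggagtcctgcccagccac
Rora, chr9:68653536-68653785, plus strand: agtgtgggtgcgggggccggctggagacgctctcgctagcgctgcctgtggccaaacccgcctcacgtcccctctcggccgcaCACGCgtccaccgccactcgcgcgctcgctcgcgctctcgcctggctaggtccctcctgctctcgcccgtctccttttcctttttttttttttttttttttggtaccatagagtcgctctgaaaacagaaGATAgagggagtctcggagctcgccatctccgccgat
Prdm1, chr10:44458749-44458998, minus strand: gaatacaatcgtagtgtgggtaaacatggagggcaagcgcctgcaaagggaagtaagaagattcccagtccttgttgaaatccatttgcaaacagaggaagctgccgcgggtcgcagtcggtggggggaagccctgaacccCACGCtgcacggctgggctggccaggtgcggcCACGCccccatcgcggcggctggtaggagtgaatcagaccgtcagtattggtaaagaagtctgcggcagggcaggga

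In the Stat4 sequence the capitals mark a GAAAGT on the reverse strand and an AGGTCA that begins at base -69 from the start. In Rora they mark a reverse GCGTG and a GATA, and in Prdm1 a pair of reverse GCGTG matches. Such short strings are common. Of 32851 promoter windows of 300 bases, 57.9% held the GATA motif, 32.4% that of the aryl hydrocarbon receptor, 19.5% that of Maf factors, 16.8% that of RUNX, 16.3% that of ROR receptors, 14.3% that of Blimp-1 and 8.30% that of STAT. Of the 12 windows of the 8 members with an entry, 4 held the GATA motif, 4 the aryl hydrocarbon receptor motif, 3 each the Maf, RUNX and Blimp-1 motifs, 1 the ROR motif and 0 the STAT motif. A match describes the letters of the window and is not evidence of binding.

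**Figure D4:**
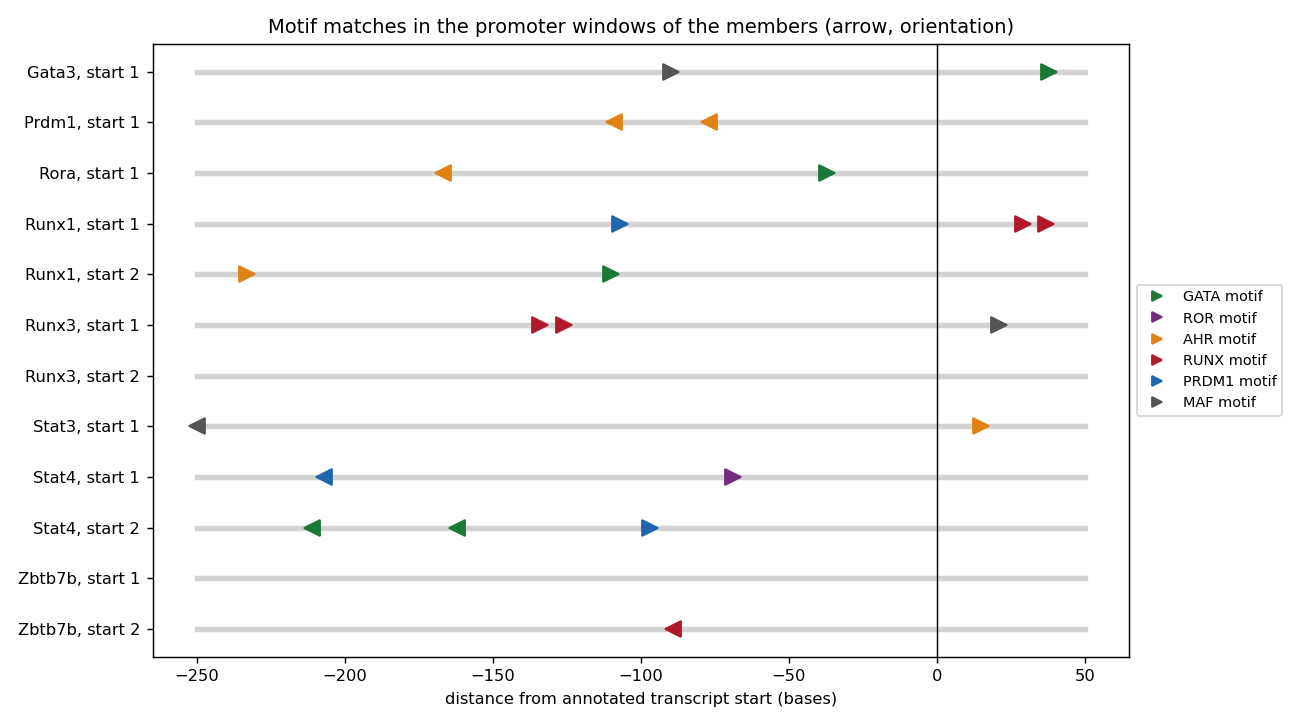
Positions of 6 motifs in the 12 promoter windows of 8 members, as distance in bases from the annotated transcript start (horizontal axis), with arrows for orientation and 1 row per start. The closely spaced pair of RUNX motifs appears in the first windows of Runx1 and of Runx3.

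Stat3 encodes the transducer of interleukin-6, interleukin-21 and interleukin-23 signals. Its main probe set read 10.08 log2 in Foxp3-fusion cells, 10.19 in Foxp3-null cells, 9.96 in GFP- CD25+ cells and 10.34 in GFP- CD25- cells. On it the 4 populations lay within 0.38 log2. Foxp3-fusion minus Foxp3-null was -0.11 log2 after normalization and 0.49 as deposited. Other probe sets gave a different picture. On 1426587_a_at Stat3 read 8.49, 6.77, 6.66 and 6.79 log2 in that order, so Foxp3-fusion cells were 3.29-fold higher than Foxp3-null cells and 3.25-fold higher than GFP- CD25- cells.

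On 1460700_at Stat3 read 8.12 log2 in Foxp3-fusion cells, 7.02 in Foxp3-null cells, 7.69 in GFP- CD25+ cells and 7.42 in GFP- CD25- cells, with Foxp3-fusion cells 2.14-fold above Foxp3-null cells. Whether Stat3 differed between populations therefore rests on the probe set read. The Foxp3-fusion array had the smallest 3' to 5' gap, by actin 5.02 log2 against 7.10 on the Foxp3-null array and by Gapdh 4.60 against 4.93. Its part in the gaps between probe sets was not tested. Nor was its part in the values of Rora, Maf, Stat4 and Prdm1, which were highest on that array by main probe set.

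Gata3, the T helper 2 factor that CD4 thymocytes also need, had 1 probe set. It read 7.61 log2 in Foxp3-fusion cells, 7.73 in Foxp3-null cells, 7.36 in GFP- CD25+ cells and 7.75 in GFP- CD25- cells. All 5 comparisons stayed under 2-fold, the widest being -0.38 log2 in GFP- CD25+ over GFP- CD25- cells. As deposited the widest was 0.76 log2, in Foxp3-fusion over GFP- CD25+ cells, still under 2-fold, and 2 of the 5 changed sign.

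Runx1 encodes a Runt domain factor of early and CD4 thymocytes. Its main probe set, 1422864_at, read 7.71 log2 in Foxp3-fusion cells, 8.22 in Foxp3-null cells, 7.83 in GFP- CD25+ cells and 9.01 in GFP- CD25- cells. GFP- CD25- cells were the high population. Against GFP- CD25- cells, Runx1 was lower by 2.47-fold in Foxp3-fusion cells and by 2.28-fold in GFP- CD25+ cells. For Foxp3-null cells it was 1.73-fold lower after normalization and 2.23-fold lower as deposited, so that call depends on the scale. Between Foxp3-fusion and Foxp3-null cells the difference was -0.51 log2 after normalization and 0.10 as deposited, and its direction is not settled.

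The second bright Runx1 probe set showed less. Its mean over the 4 arrays was 8.187 log2 and that of the main probe set 8.193, a near tie. The 2-fold calls of Runx1 rest on the choice between them. On 1440878_at Runx1 read 8.06 log2 in Foxp3-fusion cells, 8.47 in Foxp3-null cells, 7.83 in GFP- CD25+ cells and 8.39 in GFP- CD25- cells. No comparison reached 2-fold on it, and Foxp3-null cells were 0.07 log2 above GFP- CD25- cells. The other 4 Runx1 probe sets were under the floor on all arrays.

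Runx3, which silences Cd4 in CD8 cells, was above the floor in GFP- CD25- cells alone. Its main probe set read 4.43 log2 in Foxp3-fusion cells, 3.23 in Foxp3-null cells, 4.53 in GFP- CD25+ cells and 5.50 in GFP- CD25- cells. The bound is at least 1.39-fold lower in each of the other populations. The second Runx3 probe set stayed under the floor on every array.

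Markers of other cells also differed on the GFP- CD25- array. Zbtb16, the PLZF factor of NKT cells, read 6.39 log2 in GFP- CD25- cells, and Klrd1, an NK receptor gene, read 6.32, both under the floor in the other 3 populations. Other genes of the list ran the other way. Nkg7 read 5.88 log2 in Foxp3-fusion cells and 6.25 in Foxp3-null cells, against 2.95 in GFP- CD25+ cells and 4.95 in GFP- CD25- cells. Eomes, which the list also holds, was under the floor in GFP- CD25- cells alone, at 4.74. Of 10 measured NK and NKT cell markers, 2 were above the floor in Foxp3-fusion cells, 3 in Foxp3-null cells, 1 in GFP- CD25+ cells and 2 in GFP- CD25- cells. Their signals, as linear values, summed to 164, 228, 162 and 275 in that order. Ncr1, Klrk1, Gzma and Prf1 were under the floor on all 4 arrays. The part of such cells in the Runx3 and Runx1 values was not tested.

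The Runx promoters are shown because both genes had their highest main signal in GFP- CD25- cells and their windows hold a motif of their own family. The 250 bases before the first annotated start of each gene are given with matches to the 7 motifs in capitals.
Runx1, chr16:92826075-92826324, minus strand: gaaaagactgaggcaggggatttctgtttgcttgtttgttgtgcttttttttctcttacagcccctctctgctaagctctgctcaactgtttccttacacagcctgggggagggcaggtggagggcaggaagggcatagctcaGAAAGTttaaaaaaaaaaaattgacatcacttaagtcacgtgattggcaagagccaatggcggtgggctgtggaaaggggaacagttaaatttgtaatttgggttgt
Runx3, chr4:135120395-135120644, plus strand: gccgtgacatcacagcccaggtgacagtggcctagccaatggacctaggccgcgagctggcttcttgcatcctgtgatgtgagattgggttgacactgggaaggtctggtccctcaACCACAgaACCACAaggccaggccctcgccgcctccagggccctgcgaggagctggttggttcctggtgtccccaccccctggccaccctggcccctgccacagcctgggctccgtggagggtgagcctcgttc

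In Runx3 the capitals mark ACCACA repeated at a fixed spacing, and in Runx1 they mark GAAAGT. The same repeat lies in Runx1 just after the start, at bases 29 and 37 of the transcript. The longest run of letters that the first windows of both genes share is 18 bases and holds this pair. After it had been seen, the pair, spelled ACCACANNACCACA, was searched for on both strands of all windows. It was in 7 of 32851, or 0.0213%, and 3 of the 7 belong to Runx1, Runx2 and Runx3. The 26 bases around it, with the pair in capitals, compare as follows.
Runx1, chr16:92826027-92826052, minus strand: taaacaACCACAgaACCACAagttgg
Runx2, chr17:44814585-44814610, minus strand: caaacaACCACAgaACCACAagtgcg
Runx3, chr4:135120505-135120530, plus strand: ccctcaACCACAgaACCACAaggcca

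Zbtb7b encodes ThPOK, the zinc finger factor of the CD4 lineage. Its main probe set read 4.07 log2 in Foxp3-fusion cells, 4.58 in Foxp3-null cells, 4.16 in GFP- CD25+ cells and 4.83 in GFP- CD25- cells, all under the floor. The other probe set lay between 3.90 and 4.31 log2. No difference is therefore given for Zbtb7b, although all 4 populations were labelled CD4+ CD8- and Cd4 read between 8.37 and 9.37 log2. The lower floor of 4.50 log2 tried as an alternative was passed by its main probe set in Foxp3-null and GFP- CD25- cells.

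Related regulators were taken as lists, beside these shares of all genes at least 2-fold higher and lower. Over GFP- CD25- cells they were 10.5% and 5.86% in Foxp3-fusion, 10.5% and 7.64% in Foxp3-null and 4.3% and 4.5% in GFP- CD25+ cells. As deposited they were 15.7% and 3.8%, 5.08% and 12.6%, and 2.75% and 7.72% in that order. In Foxp3-fusion cells they were 9.06% and 8.42% over Foxp3-null and 11.7% and 8.48% over GFP- CD25+ cells. As deposited these were 21.2% and 2.58%, and 22.8% and 3.02%. Of 39 other T helper regulators, 35 were on the array with a name and 18 had a value in Foxp3-fusion over GFP- CD25- cells, with 5 past 2-fold upwards and 1 downwards. The median was 0.38 log2, beside -0.04 over all genes. The higher ones were Hif1a, the hypoxia factor, at 3.56-fold, Irf4, an interferon regulatory factor of effector cells, at 3.47-fold, Batf, an AP-1 partner, at no less than 3.32-fold, Gfi1 at 2.23-fold and Stat5a at 2.10-fold. Id2, an inhibitor of E proteins, was 17.6-fold lower. Against Foxp3-null cells, 5 of 18 passed 2-fold upwards and 2 downwards, with Fli1 4.98-fold, Irf4 3.54-fold, Stat5b 3.16-fold and Bach2 3.01-fold higher, and Id2 2.94-fold and Bcl6 2.30-fold lower. As deposited the counts over Foxp3-null cells were 9 and 0. Against GFP- CD25+ cells 5 of 18 were past 2-fold upwards and 2 downwards, and as deposited 9 and 1.

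Against GFP- CD25- cells, Foxp3-null cells had 3 of 18 past 2-fold upwards and 4 downwards, among them Gfi1 at 3.86-fold higher, Batf at no less than 3.57-fold higher and Bach2 at 4.92-fold lower. In GFP- CD25+ cells 3 of 18 were higher and 2 lower than there, with Gfi1 3.88-fold and Bcl6, the follicular helper factor, 2.82-fold higher. As deposited the counts were 2 and 4 for Foxp3-null cells and 3 and 2 for GFP- CD25+ cells. Tbx21, which encodes the T helper 1 factor T-bet, was under the floor on all 4 arrays, with its highest value at 4.02 log2 in GFP- CD25- cells. Eomes, its relative, read 5.40 log2 in Foxp3-fusion cells, 6.06 in Foxp3-null cells, 6.19 in GFP- CD25+ cells and 4.74 in GFP- CD25- cells.

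Of 33 genes of the choice between CD4 and CD8 fate, 29 were on the array with a name and 22 had a value in Foxp3-fusion over GFP- CD25- cells, with 1 past 2-fold upwards and 3 downwards. As deposited 3 were upwards and 2 downwards, so the balance depends on the scale. Their median was -0.26 log2, beside -0.04 over all genes. Myb, a factor of CD4 thymocytes upstream of GATA3, was 3.69-fold higher, whereas the chromatin organiser gene Satb1 was 4.94-fold, Patz1 2.62-fold and Lef1 2.04-fold lower. Cbfb, which encodes the partner of all RUNX proteins, read 9.71 log2 in Foxp3-fusion cells, 10.24 in Foxp3-null cells, 8.00 in GFP- CD25+ cells and 9.30 in GFP- CD25- cells. Foxp3-fusion cells thus exceeded GFP- CD25+ cells by 3.27-fold and were under 2-fold from both other populations. Satb1, Patz1 and, on its main probe set only, Runx1 had their highest signal in GFP- CD25- cells.

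Against Foxp3-null cells, Foxp3-fusion cells had 1 of 22 of these genes past 2-fold upwards and 1 downwards, Tcf12 at 2.60-fold higher and Zap70 at 2.81-fold lower, and as deposited 5 were higher and 0 lower. Foxp3-null cells gave 2 of 21 higher and 5 lower against GFP- CD25- cells, and as deposited 0 and 7. In GFP- CD25+ over GFP- CD25- cells 2 of 22 were higher and 4 lower, Myb at 5.54-fold higher among them, and as deposited 2 and 6. Against GFP- CD25+ cells, Foxp3-fusion cells had 1 of 22 past 2-fold upwards, Cbfb, and 3 downwards, and as deposited 1 and 0. Dntt and Arpp21, markers of immature CD4+ CD8+ thymocytes, were high in GFP- CD25+ cells, where Rag1 passed the floor by a small margin. Rag2, Ptcra, Cd8a and Cd8b1 of the same list were under the floor on all 4 arrays. Dntt read 8.37 log2, Arpp21 6.45 and Rag1 5.22 in GFP- CD25+ cells, and 3 of 7 measured markers were above the floor there, against 0 in Foxp3-fusion cells, 0 in Foxp3-null cells and 1 in GFP- CD25- cells. Their signals summed to 516 in GFP- CD25+ cells, 88.9 in Foxp3-fusion cells, 107 in Foxp3-null cells and 128 in GFP- CD25- cells, and their part in the GFP- CD25+ values of Rora and Runx1 was not tested.

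Of 27 receptor, kinase and feedback genes of the STAT pathways, 25 were on the array with a name and 17 had a value in Foxp3-fusion over GFP- CD25- cells, with 4 past 2-fold upwards and 0 downwards. Their median was 0.26 log2, beside -0.04 over all genes. Socs2 was at least 11.6-fold higher, Cish at least 5.47-fold, the interleukin-4 receptor gene Il4ra 2.34-fold and Socs3, the feedback inhibitor of STAT3, 2.10-fold. In Foxp3-null over GFP- CD25- cells 2 of 17 were higher and 0 lower, with Cish at least 5.36-fold and Il4ra 2.07-fold higher, whereas as deposited 1 was higher and 2 lower. In Foxp3-fusion over Foxp3-null cells 1 of 17, Socs2, was higher, at 6.48-fold, and 0 were lower, while as deposited 5 were higher. Against GFP- CD25+ cells, Foxp3-fusion cells had 4 of 17 higher and 0 lower, Jak1 at 4.37-fold among them, and as deposited 7 and 0. GFP- CD25+ over GFP- CD25- cells had 2 of 16 higher and 2 lower, and as deposited 1 and 2. Il6st, the shared signalling chain upstream of STAT3, read 8.47, 8.83, 7.44 and 8.10 log2 in Foxp3-fusion, Foxp3-null, GFP- CD25+ and GFP- CD25- cells, and Jak2 stayed between 10.18 and 10.93.

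**Figure D5:**
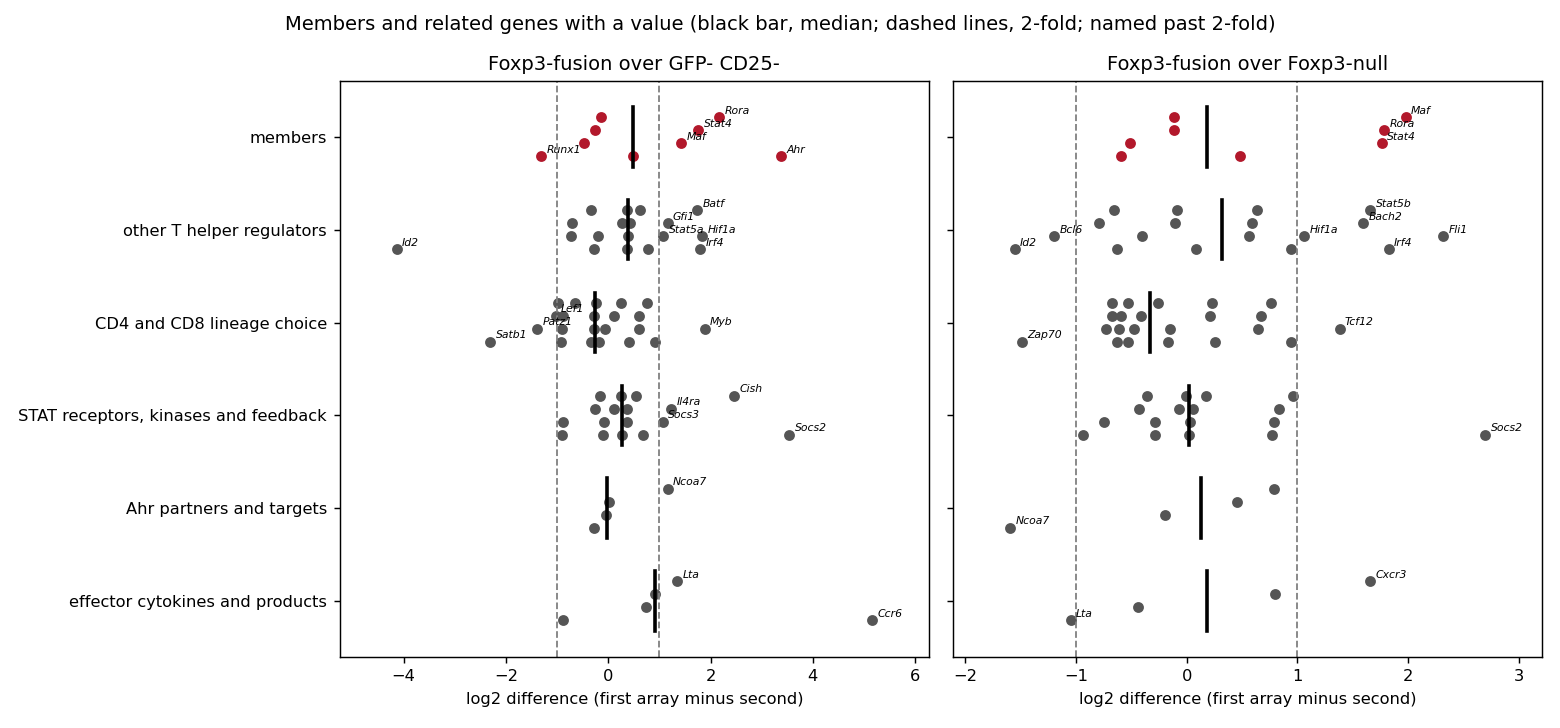
Log2 difference (horizontal axis) of each member and each related gene with a value in Foxp3-fusion over GFP- CD25- cells (left) and over Foxp3-null cells (right), with black bars for list medians and names for genes past the dashed 2-fold lines. Rora, Maf and Stat4 lie past 2-fold in both panels, and Ahr in the left one alone.

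Patterns were compared by Euclidean distance between floored, mean-centred log2 values over the 4 arrays. For the 5 members whose floored values spanned at least 2-fold, the 3 genes with the nearest pattern were found among 7207 others. For Rora they were Snx18 at a distance of 0.14, Ppcs at 0.16 and Igf1r at 0.21. For Maf they were Cmpk1 at 0.20, Golga5 at 0.23 and Uhmk1 at 0.25. For Ahr the nearest were further off, Notch2 at 0.57, Ntn4 at 0.63 and Ift80 at 0.67. For Runx1 they were Rinl at 0.12, Trmt11 at 0.20 and Abtb2 at 0.23. For Stat4, which is under the floor on 3 arrays, they were Cpd, P2rx7 and Trim14, each at 0.01, but any gene above the floor by the same amount in Foxp3-fusion cells alone would match it.

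The same distance set the members beside each other. Rora and Stat4 were 0.38 apart, Maf and Stat4 0.41, and Rora and Maf 0.77, whereas Ahr was 2.59 from Rora and 3.87 from Runx1. By this measure Rora, Maf and Stat4 lay nearest each other, and Ahr and Runx1 lay further from them. Stat4 was above the floor in Foxp3-fusion cells alone, so its distances are set in part by the floor.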

How the data were processed

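The members and all gene lists were chosen with earlier results of these data known. RNA of sorted thymocytes was amplified in 2 rounds and hybridised to the arrays, per the labels' protocols, with 1 array in each of 4 groups taken from the sample titles. The deposited values are on a log scale that their range shows, taken as log2, and the authors' background correction, summarisation and software are not given in the sources used here. Upper percentiles differed between arrays, from 7.54 to 8.16 log2 at the 90th percentile, so the 4 columns were quantile normalized, which assumes like distributions. Of 45101 probe sets, 64 controls were left out, 34945 had 1 gene in the platform annotation, 932 several and 9160 none listed, and those 34945 were used. Symbols were updated through RefSeq gene identifiers of GRCm38.p6. For the floor, the 90th percentile over 68 probe sets of 35 tissue genes silent in T cells was taken on each array and the highest used. Lower values were set to it, and a gene had a value in a comparison when 1 of the 2 arrays exceeded it. No test was made: genes at least 2-fold apart were counted. The text names the 10 members, genes of the fixed lists and the 3 nearest patterns. Promoters came from RefSeq. The counting was tested on simulated data. Python 3.11.15, NumPy 2.4.6 and pandas 2.3.3 were used. Tried as alternatives were deposited values, centred arrays, no floor, the floor raised by 1 log2 unit, each gene's probe set median, and dropping multi-transcript probe sets (suffixes _a, _s and _x). A floor without the silent genes above it on all 4 arrays was chosen after seeing the data.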

Additional observations from a re-analysis of the deposited data

How the results depend on the processing

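All 15 member differences of at least 2-fold kept their direction under the alternatives that gave them a value, and all 15 stayed past 2-fold as deposited, with centred arrays, with no floor, without multi-transcript probe sets and with the lower floor of 4.50 log2. With a floor 1 log2 unit higher, 12 of 15 stayed past 2-fold and Stat4 in its 3 comparisons did not (0.76 log2). The median over probe sets, many of them under the floor, kept 9 of 13, losing Rora in 3 comparisons (0.15 log2) and Ahr in Foxp3-fusion over GFP- CD25+ cells (0.17). The median gave Runx1 no value, so its calls were not checked that way. It brought Stat3 past 2-fold in Foxp3-fusion over Foxp3-null (1.41), GFP- CD25+ (1.13) and GFP- CD25- cells (1.20), so its counts rest on other genes. Counts of members past 2-fold upwards in Foxp3-fusion cells were 3 over Foxp3-null, 4 over GFP- CD25+ and 4 over GFP- CD25- cells. They were 2, 3 and 3 with the higher floor, 4, 5 and 5 with the lower floor, 5, 5 and 5 with no floor, 3, 3 and 4 with the probe set median, and 4, 4 and 4 without multi-transcript probe sets, where Stat3 was 1.10 log2 over Foxp3-null cells. Counts downwards were 2 in place of 1 with no floor in Foxp3-fusion over GFP- CD25- cells, 1 in place of 0 with no floor and as deposited in Foxp3-null over GFP- CD25- cells, and 0 in place of 1 with the probe set median in Foxp3-fusion and in GFP- CD25+ over GFP- CD25- cells. Every other count of members was unchanged under these alternatives. Over all genes, deposited values gave 1077 higher and 260 lower in place of 709 and 394 in Foxp3-fusion over GFP- CD25- cells, 352 and 876 in place of 729 and 528 in Foxp3-null over GFP- CD25- cells, and 185 and 520 in place of 288 and 301 in GFP- CD25+ over GFP- CD25- cells. They gave 1505 and 183 in place of 636 and 591 in Foxp3-fusion over Foxp3-null cells, and 1585 and 210 in place of 802 and 582 over GFP- CD25+ cells. The cause of these shifts was not tested. No paired analysis was possible because each group has 1 array. Genes under the floor, Zbtb7b among them, are not measured here, and their absence is not shown.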

Other observations

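Of 28 effector cytokines and products of helper cells, 25 were on the array with a name and 5 had a value in Foxp3-fusion over GFP- CD25- cells. Past 2-fold were 2 upwards and 0 downwards (10.5% and 5.86% of all genes), and as deposited 3 and 1 (15.7% and 3.8%). Ccr6, a receptor for the chemokine CCL20, had at least 35.7-fold more signal and Lta, which encodes lymphotoxin alpha, at least 2.55-fold more. Neither was particular to Foxp3-fusion cells. Ccr6 read 10.19 log2 there, 9.39 in Foxp3-null cells, 6.72 in GFP- CD25+ cells and 3.83 in GFP- CD25- cells. Lta was highest in Foxp3-null cells, at 7.43 log2, against 6.38 in Foxp3-fusion, 6.03 in GFP- CD25+ and 4.99 in GFP- CD25- cells. Il21, which encodes a cytokine of helper cells, read 5.92 log2 in GFP- CD25- cells and was under the floor in the other 3 populations. Ifng, Il4, Il5, Il13, Il17a, Il10 and Il2 were under the floor on all 4 arrays.

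Of 7 measured B cell markers, 0 were above the floor in Foxp3-fusion cells, 1 in Foxp3-null cells and 0 in both GFP- populations, and Cd79a, Pax5 and Cd22 were under it on all 4 arrays. Of 12 dendritic cell and macrophage markers, 1 was above the floor in Foxp3-fusion cells, 3 in Foxp3-null cells, 1 in GFP- CD25+ cells and 1 in GFP- CD25- cells. The class II gene H2-Aa read 5.16 log2 in Foxp3-fusion cells, 6.49 in Foxp3-null cells, 6.60 in GFP- CD25+ cells and 6.68 in GFP- CD25- cells, on a multi-transcript probe set (suffix _x). The class II gene H2-Ab1 and Cd74, of the same list, were under the floor on all 4 arrays. Csf1r and Adgre1 passed it in Foxp3-null cells alone. Of 7 epithelial markers, 1, Epcam, was above the floor on each array, and 0 of 3 erythroid markers were. Cd163l1, the only gamma delta T cell marker above the floor of 3 measured, read 5.72 log2 in GFP- CD25- cells.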
